A study of Mus musculus with 4 samples.

Results

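Blood vessel-rich spots were taken as the 80 spots of each section whose unique molecular identifiers (UMIs, 1 per captured transcript) came in the highest share from 8 vessel genes. They made up 320 of the 10662 tissue spots in 4 sections, chosen among the 9510 spots that held at least 2000 UMIs. The score of a spot was 100 times the summed UMIs of Pecam1, Cdh5, Vwf, Egfl7, Rgs5, Notch3, Myh11 and Mcam over all its UMIs, that is, their percent of the spot. The spots were thus chosen by these measured values, and the levels of the 8 genes and every contrast of vessel-rich spots with the other spots are given as a description, with no test.

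The sections came from the Achilles tendon injury site of mice, dissected 14 days after a biopsy punch of 0.5 mm, and were measured on Visium arrays, which capture RNA from tissue on a grid of barcoded spots. Sections F592A 1 and F592A 2 came from mice with the TrkA F592A allele given 1NMPP1, and sections WT 1 and WT 2 came from TrkA WT mice labelled as controls. TrkA is a receptor kinase of many pain-sensing and sympathetic nerves. With the F592A allele its kinase can be blocked by 1NMPP1. The comparison asks how vessel-rich spots differ between sections of F592A mice given 1NMPP1 and of WT controls. All mice were 12 weeks old, of both sexes, and had the same injury and buprenorphine before surgery. The effects of allele and drug cannot be told apart, since no label states that WT mice were given 1NMPP1. Tissue of 4 mice per genotype was pooled and sections are not tied to animals, so every p-value measures only the spread between sections. This spread may be technical, but between the WT sections it also held a difference in sex, by their sex-linked RNA.

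Blood vessels are lined by endothelial cells, which carry the adhesion proteins encoded by Pecam1 and Cdh5 and, in many vessels, the clotting protein of Vwf. Around them lie mural cells, pericytes on capillaries and smooth muscle on arteries and veins, which carry the G-protein regulator of Rgs5, the receptor of Notch3 and, in smooth muscle, the myosin of Myh11. Healthy tendon holds few vessels, most of them in its sheath, and repair brings new ones into the wound, while sensory and sympathetic fibres run along arteries.

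The sections held 30154873 to 43957617 UMIs, and the 80 vessel-rich spots together 1535793 UMIs in F592A 1 and 903992 in F592A 2, against 1520811 in WT 1 and 1179263 in WT 2. F592A 1 and WT 2 stood apart in that 33 and 31 of their vessel-rich spots formed 1 touching patch, against 5 and 7 in F592A 2 and WT 1. Sex-linked RNA differed in WT 2 from the rest, with 0 and 0 Xist UMIs in the vessel-rich spots of F592A 1 and F592A 2, against 1 in WT 1 and 191 in WT 2. Summed Y-linked genes stood at 162 and 191 CPM (counts scaled to a common total of UMIs) in F592A 1 and F592A 2, against 196 CPM in WT 1 and 0.848 CPM in WT 2. Sex thus differed between the WT sections and was not balanced between the groups, and its part in the group results was not tested. The sections shared 727 spot barcodes of 4386 in use, which are positions of the array and not shared cells.

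The lowest score among the 80 spots was 0.179 in F592A 1 and 0.172 in F592A 2, against 0.216 in WT 1 and 0.208 in WT 2. The next spot outside scored 0.179 in F592A 1 and 0.171 in F592A 2, against 0.216 in WT 1 and 0.208 in WT 2, so the last spots inside and the first outside hardly differed. The median vessel-rich spot scored 0.269 and 0.204 in F592A sections and 0.256 and 0.273 in WT sections, against 0.0461 and 0.0483 for the other spots of F592A sections and 0.0613 and 0.0574 for those of WT sections. Scores ran up to 1.75 in F592A 1 and 1.54 in WT 2, the sections with the large patches, but only to 0.661 in F592A 2 and 0.711 in WT 1. The median depth was 5517 and 6712.5 UMIs in vessel-rich spots of F592A sections and 12652 and 9086 UMIs in those of WT sections. Depth was uneven, as the deepest 10 vessel-rich spots held 68.2% and 49.5% of the UMIs in F592A sections and 38.9% and 38.0% in WT sections, so that sums over spots lean on few of them.

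**Figure D1:**
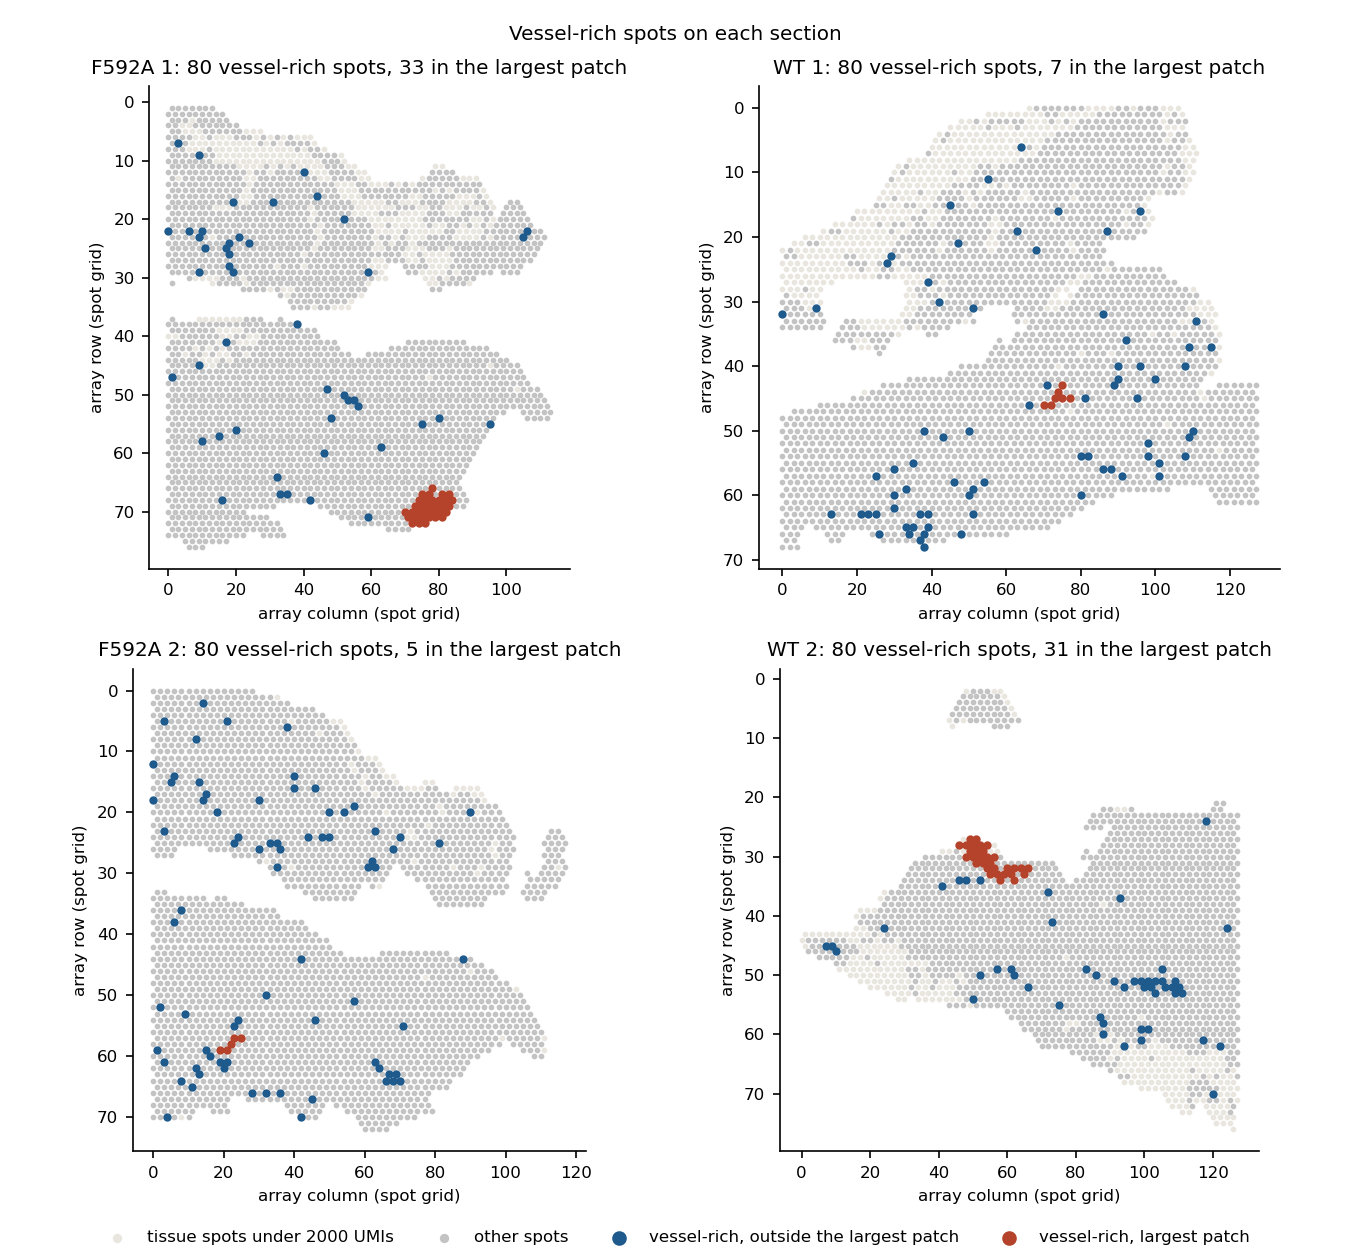
Position of the vessel-rich spots on the spot grid of each section (array column against array row), with other spots of at least 2000 UMIs in grey and shallower ones in pale grey. The largest touching patch, in red, held 33 spots in F592A 1 and 5 in F592A 2, against 7 in WT 1 and 31 in WT 2, and the rest (blue) lay scattered over the tissue.

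Vessel-rich spots gathered in some places and lay alone in others. Of 80 spots, 48 in F592A 1 and 35 in F592A 2 touched another vessel-rich spot, against 31 in WT 1 and 56 in WT 2. As percentages these were 60% and 43.75% in F592A sections and 38.75% and 70.0% in WT sections, where 9.47% to 13.4% of the other spots touched a vessel-rich spot. The share averaged 51.9% ± 11.5 in F592A sections and 54.4% ± 22.1 in WT sections (SD, n = 2 each), a difference within the spread of either group (exact two-sided permutation test, p = 1, where 2 sections against 2 cannot go below 0.3333). In F592A 2 another patch also held 5 spots, and the first of both in the file is used below.

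Over all spots of at least 2000 UMIs, vessel-rich or not, the 8 genes together made 720 and 608 CPM in F592A 1 and F592A 2, against 787 and 750 CPM in WT 1 and WT 2. Both F592A sections lay below both WT sections, at means of 664 ± 79.8 and 768 ± 26.3 CPM (SD, n = 2 each), which is given with no test, since these genes make the score. Vessel-rich spots held 19.2% and 8.99% of these marker UMIs in F592A sections and 12.2% and 18.4% in WT sections, so most of them lay outside the vessel-rich spots.

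The mural gene Rgs5 supplied more of the score than any other gene, with 50.4% and 47.0% of the marker UMIs in F592A sections and 41.6% and 51.1% in WT sections. It held more UMIs than each of the other 7 genes in 247 of 320 vessel-rich spots. Pecam1 and Myh11 led alone in 16 spots each, Egfl7 in 8, Mcam in 5 and Cdh5 in 3, while 25 spots had a tie for the lead, and Vwf and Notch3 led in tied spots alone. Rgs5 stood at 1973 and 1050 CPM in vessel-rich spots of F592A sections and at 1108 and 1778 CPM in those of WT sections, against 244 to 298 CPM in the other spots of the 4 sections. Myh11 varied most between sections, with 554 and 115 CPM in F592A 1 and F592A 2 and 142 and 330 CPM in WT 1 and WT 2. The endothelial genes varied less, Pecam1 lying at 307 and 229 CPM in F592A sections against 306 and 295 CPM in WT sections, and Cdh5 at 216 and 212 CPM in F592A sections against 306 and 247 CPM in WT sections. Vwf ran between 81.9 and 126 CPM, Egfl7, a secreted endothelial factor, between 184 and 226 CPM, Notch3 between 147 and 199 CPM and Mcam, an adhesion protein of mural and endothelial cells, between 216 and 353 CPM over the 4 sections.

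**Figure D2:**
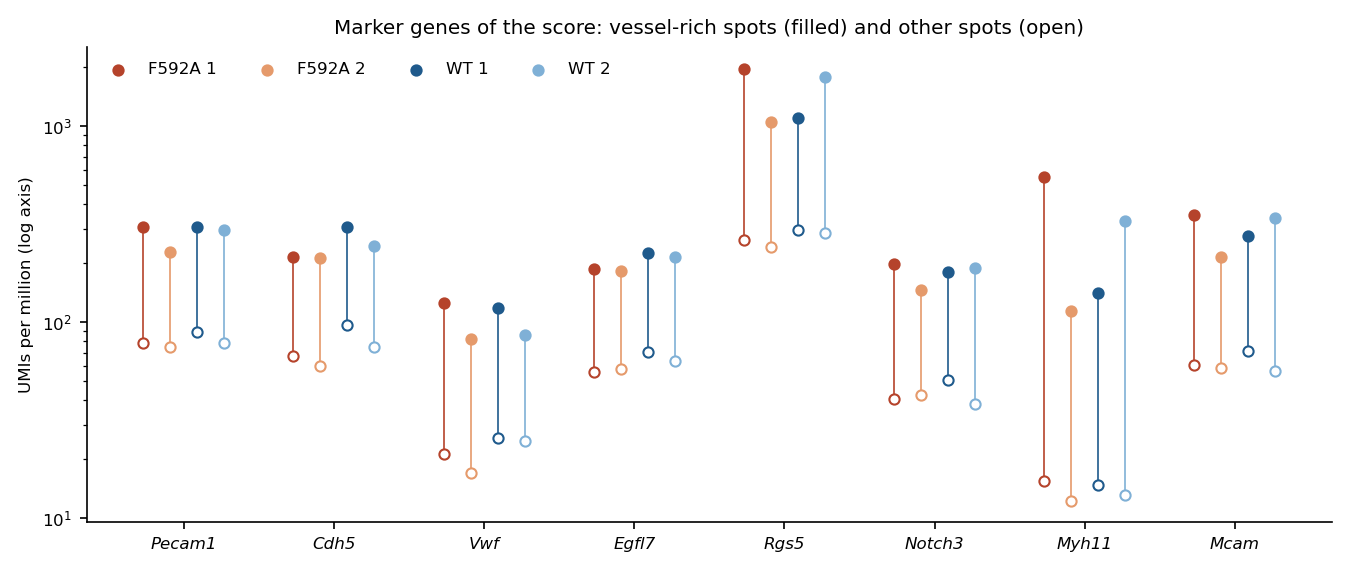
Level of each of the 8 scored genes (CPM, log axis) in the vessel-rich spots (filled) and the other spots (open) of each section, F592A sections in red and WT sections in blue. Rgs5 was highest in F592A 1 (1973 CPM) and WT 2 (1778 CPM), and Myh11 separated those sections from F592A 2 and WT 1 more than any other of the genes did.

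Nearly every vessel-rich spot held UMIs of both sets of scored genes, endothelial (Pecam1, Cdh5, Vwf and Egfl7) and mural (Rgs5, Notch3, Myh11 and Mcam). Mcam is also carried by endothelial cells, and in some spots it was the only mural gene with UMIs. Mural UMIs were present in all 320 spots and endothelial UMIs in 302, and of the 18 spots with none, 10 lay in F592A 1. Endothelial UMIs outnumbered mural ones in 49 spots, 9 and 19 in F592A 1 and F592A 2 and 12 and 9 in WT 1 and WT 2. The endothelial genes made 21.4% and 31.6% of the marker UMIs in F592A sections and 35.9% and 24.2% in WT sections. Across the 80 spots of a section, Rgs5 and Myh11 shares had a Spearman correlation of 0.47 in F592A 1 and -0.17 in F592A 2, against -0.15 in WT 1 and 0.63 in WT 2, so they went together in the sections with large patches. Spots of a section share its library and neighbouring spots share vessels, and the score ties the genes to each other, so these values are descriptions.

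The blood vessel label was compared with genes outside the score. Of 20 other endothelial genes, 19 were higher in vessel-rich than in other spots of all 4 sections, and the same held for 9 of 12 pericyte genes, 10 of 14 smooth muscle genes, 11 of 12 arterial genes, 7 of 8 venous genes and 7 of 9 capillary genes. By contrast it held for 2 of 8 lymphatic genes, 0 of 10 tenocyte genes and 0 of 10 fast muscle genes. Among other cell types it held for 5 of 9 adipocyte genes and 4 of 6 erythrocyte genes. Adipocyte genes summed to 673 and 2023 CPM in vessel-rich spots of F592A sections and 640 and 954 CPM in those of WT sections. Other spots held 484 and 685 CPM in F592A sections and 443 and 419 CPM in WT sections. Fast muscle sums were higher in vessel-rich spots of F592A 2 alone (27205 against 18198 CPM). The share of all genes that were higher in all 4 sections was not counted, so these counts have no background beside them. At least 2-fold higher in every section, with 10 CPM added to both sides, were 40 of 9728 genes (0.411%), and 6 of the 20 endothelial genes. That cut was met by 4 of 12 arterial, 2 of 8 venous, 1 of 9 capillary, 2 of 14 smooth muscle and 0 of 12 pericyte genes. A spot covers several cells, so tenocyte genes still made 36797 and 38798 CPM in vessel-rich spots of F592A sections and 34983 and 46725 CPM in those of WT sections. Fewer cells of a type and less RNA per cell cannot be told apart in such sums.

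The gene outside the score that was most consistently higher was Cldn5, a tight junction protein of endothelium. It had 138 and 114 CPM in vessel-rich spots of F592A sections and 157 and 186 CPM in those of WT sections, 3.18-fold to 4.49-fold the level in other spots. The secreted matrix protein gene Sparcl1 ranged from 3.15-fold to 7.93-fold, Tinagl1, a matrix protein of vessel walls, from 3.00-fold to 5.63-fold, and Mmrn2, an endothelial matrix protein, from 2.97-fold to 3.23-fold. The endothelial phosphatase gene Ptprb reached 2.91-fold to 3.79-fold, and Epas1, a hypoxia-inducible transcription factor, 2.83-fold to 4.27-fold. Mylk, the kinase that triggers smooth muscle contraction, ranged from 2.83-fold to 6.32-fold and Lrg1, a secreted glycoprotein of venous endothelium, from 2.75-fold to 3.40-fold. The other 12 of the 20 leading genes were Atp2a3, Sorbs2, Podxl, Esam, Nr2f2, Col18a1, Col4a2, Col4a1, Rasip1, Mustn1, Lama5 and Adgrl4, which include 4 genes of the vascular basement membrane, with lowest folds of 2.05 to 2.56.

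Vessel-rich spots were not of 1 kind. The 20 spots of each section with the highest Myh11 share differed from the other 60 in smooth muscle genes, which is a description, since Myh11 is a scored gene. Cnn1, the actin-binding protein calponin, was 5.62-fold to 58.1-fold higher in them, Acta2, smooth muscle actin, 4.29-fold to 18.2-fold, and Tagln, transgelin, 3.08-fold to 26.7-fold. Cytl1, a secreted cytokine-like protein, led with 7.46-fold to 20.8-fold. Of these 20 spots, 19 lay in the largest patch in both F592A 1 and WT 2, against 3 in F592A 2 and 1 in WT 1.

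The large patches of F592A 1 and WT 2 were the places of the contractile genes. Acta2 stood at 14783 CPM in the patch of F592A 1 and 2910 CPM in that of F592A 2, against 1718 CPM in WT 1 and 7770 CPM in WT 2, while vessel-rich spots outside the patches held 824 and 679 CPM in F592A sections and 776 and 594 CPM in WT sections. Cnn1 stood at 1773 and 58.0 CPM in the patches of F592A sections and 49.6 and 880 CPM in those of WT sections, and outside them at 15.4 and 18.3 CPM in F592A sections and 33.9 and 8.25 CPM in WT sections. In both genes, 1 section of each group was high and the other low, so the groups overlapped. The 14 smooth muscle genes outside the score summed to 36182 and 19710 CPM in the patches of F592A 1 and WT 2 and to 6921 and 4531 CPM in those of F592A 2 and WT 1. Blood RNA marked the same patches, as erythrocyte genes summed to 12411 CPM in F592A 1 and 19203 CPM in WT 2, against 916 CPM in F592A 2 and 1628 CPM in WT 1. Counts of the near-identical haemoglobin genes in that list are uncertain one by one, since reads can be split between copies.

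**Figure D3:**
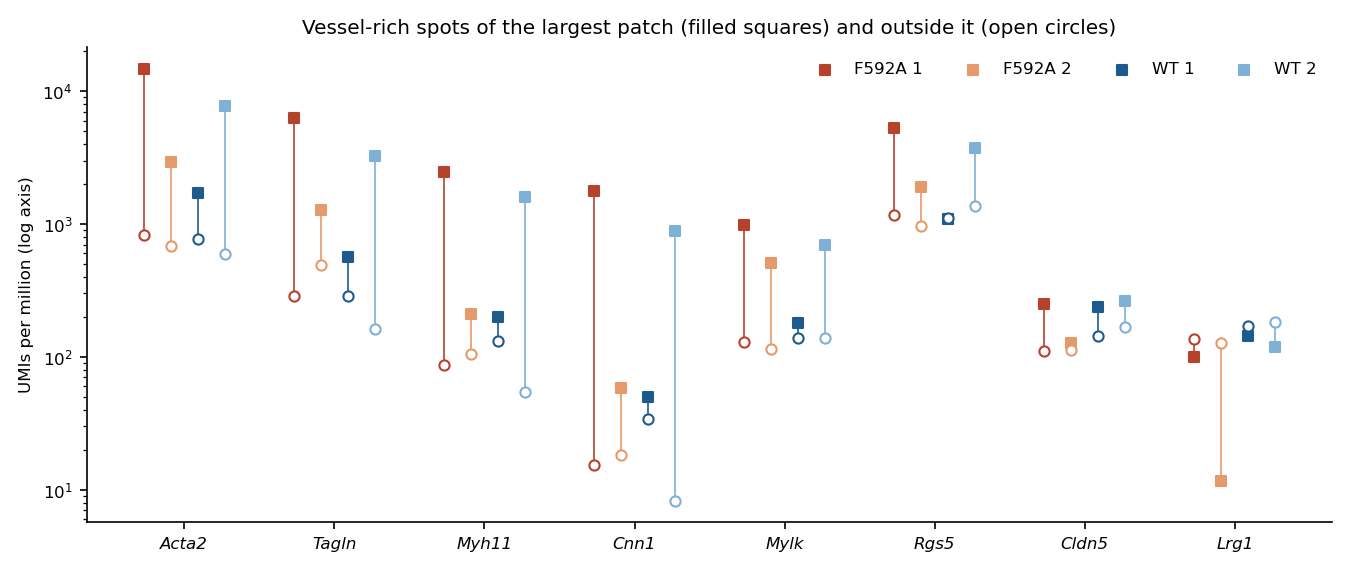
Level of smooth muscle, pericyte and endothelial genes (CPM, log axis) in the largest patch of each section (filled squares) and in its other vessel-rich spots (open circles). Acta2 and Cnn1 reached 14783 and 1773 CPM in the patch of F592A 1 and 7770 and 880 CPM in that of WT 2, while the endothelial Cldn5 and Lrg1 differed less between inside and outside in these 2 sections.

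Neurotrophin receptors, by which nerves respond to growth factors, were measured at low counts. Ntrk3, the receptor of neurotrophin 3, had 43 and 2 UMIs in F592A sections and 11 and 18 in WT sections, of which 38 and 0 lay in the patches of F592A sections and 8 and 18 in those of WT sections. At 126 CPM in the patch of F592A 1 and 86.1 CPM in that of WT 2, it was found with the contractile genes in these sections. In WT 1, 8 of its 11 UMIs also lay in the patch. Smooth muscle genes there summed to 4531 CPM, against 3689 CPM in the vessel-rich spots outside it. Its ligand gene Ntf3 had 33.1 and 23.2 CPM in the patches of F592A sections, against 9.02 and 43.0 CPM in those of WT sections. The patches held 301838 and 86255 UMIs in F592A sections and 221791 and 209129 UMIs in WT sections, so these values rest on few UMIs of Ntf3. Ngfr, the p75 receptor shared by neurotrophins, had 1.33 and 5.79 TMM-scaled CPM in vessel-rich spots of F592A sections and 13.7 and 11.8 in those of WT sections and did not pass (log2 fold change -2.02 ± 0.65 SE, adjusted p = 0.983 in edgeR).

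F592A and WT sections were then compared over the sums of their vessel-rich spots, in which the number of spots was fixed and the group contrast was not what chose them. With the number fixed, the lowest score differed, at 0.179 and 0.172 in F592A sections against 0.216 and 0.208 in WT sections. Its part in the group differences was not tested. Of 10815 genes tested with edgeR's quasi-likelihood test and Benjamini-Hochberg adjustment, 4 passed an adjusted p of 0.05 (0.037%), 1 higher in F592A (0.00925%) and 3 lower (0.0277%). At an unadjusted p under 0.05 there were 508 genes (4.70%), and both sections of one group lay above both of the other for 3602 genes (33.3%). None of the 4 was in the endothelial, pericyte, smooth muscle, arterial, venous or capillary lists. Values below are TMM-scaled CPM, which corrects for differing library composition, with SE for each log2 fold change of F592A over WT.

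Nr4a1 was the 1 gene that rose. It encodes an orphan nuclear receptor that is switched on within minutes by growth factors, calcium and shear stress. It had 192 and 189 CPM in F592A 1 and F592A 2, against 37.1 and 41.2 CPM in WT 1 and WT 2. The groups did not overlap and differed 2.28 ± 0.22 on the log2 scale (adjusted p = 0.0280 in edgeR). The rise stood outside the patches too, at 198 and 177 CPM unscaled in F592A sections against 38.5 and 37.1 CPM in WT sections. It was also present in the other spots of the sections, with 142 and 156 CPM in F592A against 46.4 and 70.7 CPM in WT, and the test of a larger change in vessel-rich spots did not pass (log2 difference 0.89 ± 0.21, adjusted p = 0.657 in edgeR).

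The promoter of Nr4a1 is shown because it carries repeats of 1 short motif. In RefSeq's table of GRCm38.p6, 250 bases before to 50 after the start lie at chr15:101266596-101266895 on the plus strand, and Nr4a1 itself spans 101253902 to 101274795 on chromosome 15. Capitals mark the motif TGCGTCA, searched on both strands, and no match overlapped another.
Nr4a1 promoter: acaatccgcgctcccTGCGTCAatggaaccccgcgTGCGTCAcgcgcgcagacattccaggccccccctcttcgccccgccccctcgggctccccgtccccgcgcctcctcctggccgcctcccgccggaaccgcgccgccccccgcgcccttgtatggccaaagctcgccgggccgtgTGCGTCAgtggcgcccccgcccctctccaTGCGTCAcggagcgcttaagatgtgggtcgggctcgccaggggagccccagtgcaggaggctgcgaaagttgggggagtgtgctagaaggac
The window held 4 matches. The motif was found in 695 of 32851 promoter windows of the same length (2.116%), Nr4a1 being the 1 window with at least 4. That is not a separate result, since the promoter is shown for these repeats. Of 12 immediate early genes with a window, Nr4a1 and Fosb held it. A match is a description of the letters and not of a bound site.

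Other genes that respond to stimulation lay higher in F592A without passing. Ccn1, a matricellular protein of activated endothelium and fibroblasts, had 242 and 211 CPM in F592A sections against 85.3 and 92.4 CPM in WT sections (log2 fold change 1.35 ± 0.21, adjusted p = 0.334 in edgeR). The clock gene Per1 (1.41 ± 0.23) and Ccn2, the connective tissue growth factor (1.21 ± 0.22), lay in the same direction with adjusted p-values of 0.334 and 0.432 in edgeR. The related nuclear receptor gene Nr4a2 had 54.6 and 51.0 CPM in F592A sections against 19.5 and 23.5 CPM in WT sections (adjusted p = 0.471 in edgeR). Anxa8, Prg4 and Acan, genes of membrane binding, lubrication and cartilage matrix, had log2 fold changes of 1.12, 1.35 and 1.05 and did not pass either. Ptgs2, the inducible cyclooxygenase, had 28.0 and 23.2 CPM in F592A sections against 1.95 and 5.04 CPM in WT sections, groups that did not overlap (2.91 ± 0.49, adjusted p = 0.334 in edgeR). Of 14 tested immediate early genes, 1 passed, Nr4a1 (against 0.037% of all genes), and 11 had a positive log2 fold change, with a median of 0.30 against 0.01 over all tested genes. The list was also higher in the other spots, at 1311 and 1363 CPM in F592A sections against 1091 and 1140 CPM in WT sections. The same gene was the 1 that passed among 8 genes of the KLF and shear response list, whose median was 0.23.

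Igf2 was among the 3 genes that fell. It encodes insulin-like growth factor 2, an imprinted growth factor of fetal and regenerating tissue, and lies on chromosome 7 at 142650768 to 142666816 (mm10). It had 30.6 and 32.4 CPM in F592A sections, against 290.5 and 213 CPM in WT sections. The groups did not overlap and differed by -3.00 ± 0.26 on the log2 scale (adjusted p = 0.0280 in edgeR). The other spots of the same sections held 19.2 and 12.4 CPM in F592A against 193 and 126 CPM in WT, and the test of the difference between vessel-rich and other spots did not pass (0.29 ± 0.24, adjusted p = 0.987 in edgeR).

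Sln, the gene of sarcolipin, a small inhibitor of the muscle calcium pump, had 6.66 and 3.47 CPM in F592A sections against 151 and 85.7 CPM in WT sections. The difference was -4.43 ± 0.43 on the log2 scale without overlap (adjusted p = 0.0280 in edgeR). Spots could hold skeletal muscle beside vessels, and muscle lists differed between the sections. Slow muscle genes had 1 positive and 6 negative log2 fold changes of 7 tested (median -1.26) and regenerating muscle genes 5 negative of 5 (median -3.04), while fast muscle genes had 10 positive of 10 (median 1.15). In the other spots slow muscle genes summed to 788 and 816 CPM in F592A sections against 2653 and 1759 CPM in WT sections. Regenerating muscle genes summed there to 97.1 and 76.0 CPM against 682 and 250 CPM. For Sln the test of a difference between vessel-rich and other spots did not pass in edgeR. Summed, fast muscle genes stood at 6607 and 27205 CPM in vessel-rich spots of F592A sections and at 12178 and 4602 CPM in those of WT sections, and their part in the result for Sln was not tested.

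Ccl21a, the chemokine of lymphatic endothelium that draws dendritic and T cells, had 42.6 and 42.9 CPM in F592A sections against 205 and 278 CPM in WT sections. It fell by 2.49 ± 0.25 on the log2 scale without overlap (adjusted p = 0.0285 in edgeR), and since near-identical copies of this gene exist its count is uncertain. The call ended without the largest patches (log2 fold change -2.05, adjusted p = 0.351 in edgeR), with 160 spots per section (-1.75, adjusted p = 0.276) and with at least 5000 UMIs per spot (-1.54, adjusted p = 0.480). It was the 1 lymphatic gene of 8 that passed (against 0.037% of all genes), and 7 of the 8 lay on the negative side (median log2 fold change -1.78, against 0.01 over all tested genes). Lyve1, a hyaluronan receptor of lymphatic endothelium and some macrophages, had 12.0 and 18.5 CPM in F592A sections against 55.4 and 79.8 CPM in WT sections (-2.18 ± 0.33, adjusted p = 0.334 in edgeR). Prox1, the transcription factor that sets lymphatic identity, had 4.66 and 3.47 CPM in F592A sections against 9.12 and 27.7 CPM in WT sections (-2.07 ± 0.66, adjusted p = 0.983 in edgeR). The 8 genes summed to 229 and 239 CPM unscaled in vessel-rich spots of F592A sections and 510 and 678 CPM in those of WT sections, against 258 and 345 CPM in the other spots of F592A sections and 313 and 327 CPM in those of WT sections. In vessel-rich spots both F592A sections lay below both WT sections (exact two-sided permutation test, p = 0.3333, the smallest that 2 sections against 2 allow).

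**Figure D4:**
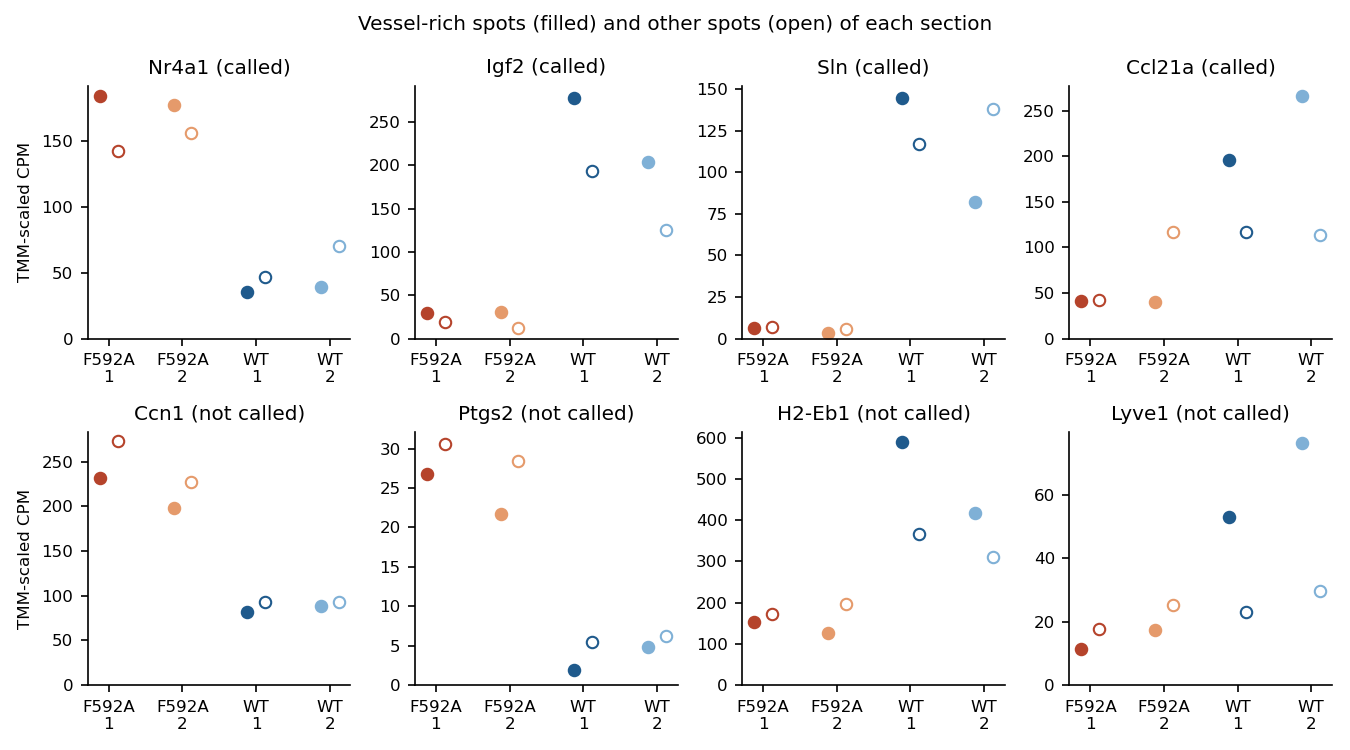
TMM-scaled CPM of the 4 genes that passed and of 4 that did not, in the vessel-rich spots (filled) and the other spots (open) of each section, scaled over both kinds of spots together. In vessel-rich spots both F592A sections lay above both WT sections for Nr4a1, Ccn1 and Ptgs2 and below them for Igf2, Sln, Ccl21a, H2-Eb1 and Lyve1.

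The 4 calls depended on the sections used, among them WT 2, which differed from the rest in sex-linked RNA. Leaving out a section left 1 in its group, which is then assumed to vary like the other group. Without WT 2 none of the 4 passed and no gene did, at log2 fold changes of 2.37 for Nr4a1, -3.19 for Igf2, -4.77 for Sln and -2.25 for Ccl21a. Without WT 1 there were 6 calls that kept 3 of the 4, without F592A 1 there were 212 and without F592A 2 148, in both cases with all 4. With the mural genes alone in the score none of the 4 passed, and Nr4a1 did not with the endothelial genes alone either (1.66, adjusted p = 0.731 in edgeR). No gene passed with 40 spots per section (391 genes at an unadjusted p under 0.05) or with each spot thinned to 2000 UMIs (294 of 3227 genes tested), and DESeq2 called 9.

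Genes of the vessel wall did not pass in any list. Of the 20 endothelial genes outside the score, 17 lay on the negative side, and the median log2 fold change was -0.27 against 0.01 over all tested genes. Plvap, the diaphragm protein of fenestrated endothelium, had 307 and 212 CPM in F592A sections against 349 and 294 CPM in WT sections (-0.31 ± 0.26). Cldn5 had 141 and 119 CPM in F592A sections against 156 and 184 CPM in WT sections (-0.38 ± 0.22), and Emcn, a sialomucin of capillaries and veins, 81.9 and 54.4 CPM in F592A sections against 93.8 and 104 CPM in WT sections (-0.52 ± 0.25). The VEGF receptor genes Kdr and Flt1 changed by -0.35 ± 0.24 and -0.28 ± 0.23 and the angiopoietin receptor gene Tek and its relative Tie1 by -0.41 ± 0.21 and -0.37 ± 0.29. The adjusted p of each of these genes was 0.983 in edgeR. Summed, the list stood at 1868 and 1431 CPM in F592A sections and 2097 and 2063 CPM in WT sections, both F592A sections below both WT sections (exact two-sided permutation test, p = 0.3333). The other spots lay in the same order, at 663.5 and 635.7 CPM in F592A sections against 778.7 and 708.2 CPM in WT sections.

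The contractile genes Acta2, Tagln and Cnn1 of mural cells went apart by section rather than by group. Acta2 had 3648 and 933 CPM in F592A sections against 905 and 1849 CPM in WT sections (0.74 ± 0.61). Tagln had 1503 and 591.9 CPM in F592A sections against 324 and 702 CPM in WT sections (1.03 ± 0.50). Cnn1 had 369 and 23.2 CPM in F592A sections against 35.8 and 161 CPM in WT sections (1.04 ± 1.01). The groups overlapped for all of them, F592A 1 and WT 2 being high, and without F592A 1 the log2 fold changes of Acta2 and Cnn1 turned to -0.56 and -2.07. Of 13 tested smooth muscle genes, 12 were positive (median 0.67), and the 12 pericyte genes were split 7 to 5 (median 0.04). The receptor gene Pdgfrb had 176 and 168 CPM in F592A sections against 149 and 151 CPM in WT sections (0.20 ± 0.20). Kcnj8, a potassium channel gene of pericytes, had 41.9 and 25.5 CPM in F592A sections against 48.2 and 47.0 CPM in WT sections (-0.46 ± 0.29). In both genes the groups did not overlap, and neither passed.

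By vessel type the medians were -0.36 over 12 arterial, -0.31 over 7 venous and -0.13 over 8 capillary genes, with 0 calls in each (edgeR, against 0.037% of all genes). Gja5, a gap junction protein of arteries, had 25.3 and 25.5 CPM in F592A sections against 38.4 and 47.0 CPM in WT sections (-0.74 ± 0.26). Ackr1, a chemokine receptor of venules, had 23.3 and 41.7 CPM in F592A sections against 42.3 and 42.0 CPM in WT sections (-0.42 ± 0.32). For growth, Vegfa had 49.9 and 71.8 CPM in F592A sections against 29.3 and 34.4 CPM in WT sections without overlap (0.92 ± 0.27). Angpt2, which loosens vessels for sprouting, had 32.6 and 18.5 CPM in F592A sections against 35.8 and 47.9 CPM in WT sections (-0.65 ± 0.33). The basement membrane collagen Col4a1 lay at 1508 and 1061 CPM in F592A sections against 1125 and 1198 CPM in WT sections (0.15 ± 0.29). The leukocyte adhesion genes Icam1 (-0.60 ± 0.24) and Vcam1 (0.03 ± 0.27) and the haemoglobin gene Hba-a1 (0.05 ± 0.41) did not pass either. No gene passed among the Notch signalling (median -0.03), TGF-beta and BMP (0.02), vascular basement membrane (0.15), elastic fibre (-0.04), vasoactive (-0.11), haemostasis (0.03) or VEGF and angiopoietin ligand (0.24) lists.

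Immune genes in vessel-rich spots went both ways, and no gene of these lists passed. All 6 tested MHC class II genes, which present antigen, were negative (median -1.47) and all 6 were at an unadjusted p under 0.05, against 4.70% of all tested genes. The list summed to 958 and 1126 CPM in vessel-rich spots of F592A sections against 3816 and 2580 CPM in those of WT sections. It was also lower in the other spots of F592A sections, at 1028 and 1252 CPM, against 2237 and 1838 CPM in those of WT sections. H2-Eb1 had 160 and 135 CPM in F592A sections against 616 and 438 CPM in WT sections without overlap (-1.83 ± 0.27, adjusted p = 0.303 in edgeR), and H2-Aa 188 and 228 CPM in F592A sections against 827 and 514 CPM in WT sections (-1.69 ± 0.30, adjusted p = 0.432 in edgeR). Csf2rb, a cytokine receptor subunit of myeloid cells, changed by -1.45 ± 0.26 and Naaa, a lysosomal amidase, by -1.25 ± 0.23. All 5 tested mast cell genes were negative (median -2.24), and the mast cell list summed to 50.1 and 102 CPM in vessel-rich spots of F592A sections against 659 and 201 CPM in those of WT sections. The other spots lay in the same order, at 33.0 and 73.6 CPM in F592A sections against 94.3 and 87.1 CPM in WT sections. Of 10 macrophage genes 8 were negative (median -0.37). Neutrophil genes lay the other way, 3 of 3 tested being positive (median 1.43, 2 at an unadjusted p under 0.05), and the list summed to 71.6 and 90.7 CPM in F592A sections against 51.9 and 26.3 CPM in WT sections. Of 8 tested acute inflammation genes, 5 were positive and 3 negative (median 0.62).

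Whether the group difference was larger in vessel-rich than in other spots was tested as an interaction over 8 sums with the section as a block. Of 15423 genes, edgeR called 0 (0%), with 711 at an unadjusted p under 0.05 (4.61%), and DESeq2 called 6, among them Fmod, Clu, Sfrp2 and Dlk1. The values named here are those of the main edgeR fit, in which none of them passed. Each of these genes passed in some of the other settings, which included fits with a single section left in a group. Clu, the chaperone clusterin, had 254 and 114 TMM-scaled CPM in vessel-rich spots of F592A sections and 141 and 154 in those of WT sections, against 42.6 and 39.7 in the other spots of F592A sections and 122 and 134 in those of WT sections (log2 difference 1.89 ± 0.29, adjusted p = 0.118 in edgeR). For the tendon matrix genes Cilp2 and Fmod the difference was 1.94 ± 0.26 and 1.27 ± 0.17, and WT sections held more of both in other spots. Sfrp2, a secreted Wnt modulator, had 403 and 329 CPM in vessel-rich spots of F592A sections and 748 and 661 in those of WT sections, against 618 and 566 in the other spots of F592A sections and 452 and 488 in those of WT sections (-1.28 ± 0.18, adjusted p = 0.101 in edgeR). The delta-like gene Dlk1 (-1.65 ± 0.24), the chemokine receptor gene Ccr2 (-1.06 ± 0.19) and Lyve1 (-1.86 ± 0.27, adjusted p = 0.101 in edgeR) lay in the same direction, and Ccl21a differed by -1.74 ± 0.36 (adjusted p = 0.421 in edgeR). Leaving out single sections gave 276 calls without F592A 1, 23 without F592A 2, 3 without WT 1 and 16 without WT 2.

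The surroundings of vessel-rich spots were measured in spots that the score had not taken, although the score set which spots counted as adjacent. Beside vessels and far away here mean distance from the vessel-rich spots, not from any vessel, since far spots held vessel marker RNA too. Spots directly beside a vessel-rich spot numbered 229 and 343 in F592A sections and 336 and 207 in WT sections, and those 3 or more grid steps away from any numbered 1853 and 1786 in F592A sections and 1726 and 1195 in WT sections. Of 14527 genes, 6 were higher beside vessels in edgeR with the section as a block (0.0413%) and 0 lower, with 1914 at an unadjusted p under 0.05 (13.2%) and 427 called by DESeq2. Of the 6, 1 gene, Notch3, is a scored gene and is not counted as a result. Adjacent spots held more scored RNA than far spots. The 4 mural genes of the score summed to 555 and 534 CPM beside vessels in F592A sections and 659 and 600 CPM in WT sections. Far away they summed to 350 and 308 CPM in F592A sections and 355 and 361 CPM in WT sections. The part of vessels that scored below the cut-off was not tested. Depth differed little in 3 sections, but in WT 1 the adjacent spots held a median of 12154 UMIs against 6514.5 in the far spots, and its part in the result was not tested.

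Lrg1 had 64.8 and 65.9 CPM beside vessels in F592A sections and 77.5 and 84.2 CPM in WT sections, against 33.5 and 27.6 CPM far away in F592A sections and 34.5 and 36.7 CPM in WT sections. It was higher in 4 of 4 sections by 1.14 ± 0.08 on the log2 scale (adjusted p = 0.0154 in edgeR). Cldn5 had 44.3 and 50.1 CPM beside vessels in F592A sections and 64.9 and 61.8 CPM in WT sections, against 22.5 and 23.9 CPM far away in F592A sections and 29.4 and 29.9 CPM in WT sections (1.06 ± 0.07, adjusted p = 0.0154 in edgeR). Selp, the P-selectin of venules that slows leukocytes, rose by 1.25 ± 0.12, and Cygb, the oxygen-binding cytoglobin of fibroblasts and mural cells, by 0.86 ± 0.08, both with an adjusted p of 0.0435 in edgeR.

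Tpsb2, the mast cell tryptase, was the fifth gene. It had 10.9 and 27.8 CPM beside vessels in F592A sections and 39.3 and 56.5 CPM in WT sections, against 5.08 and 11.6 CPM far away in F592A sections and 12.3 and 15.4 CPM in WT sections (1.51 ± 0.15, adjusted p = 0.0435 in edgeR). All 6 tested mast cell genes were higher beside vessels in all 4 sections (10.0% of all genes were), with a median of 1.52 against -0.01 over all tested genes. The mast cell list summed to 50.9 and 157 CPM beside vessels in F592A sections and 180 and 282 CPM in WT sections, against 28.9 and 54.0 CPM far away in F592A sections and 70.2 and 58.4 CPM in WT sections. Of 20 endothelial genes outside the score, 17 were higher in all 4 sections and all 20 positive (median 0.68), and so were 8 of 10 macrophage genes (median 0.56) and 5 of 5 erythrocyte genes (median 0.70). Tenocyte genes were 0 of 10 (median -0.23), smooth muscle genes 2 of 14 (median 0.04) and keratinocyte genes 0 of 9 (median -1.41). The keratinocyte gene Dmkn (-1.44 ± 0.21) and the hair keratin gene Krt35 (-1.76 ± 0.19) were lower beside vessels without passing. Leaving out F592A 1, F592A 2 or WT 1 left no calls, the 5 genes then having adjusted p-values of at least 0.0625 in edgeR, and leaving out WT 2 gave 178.

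**Figure D5:**
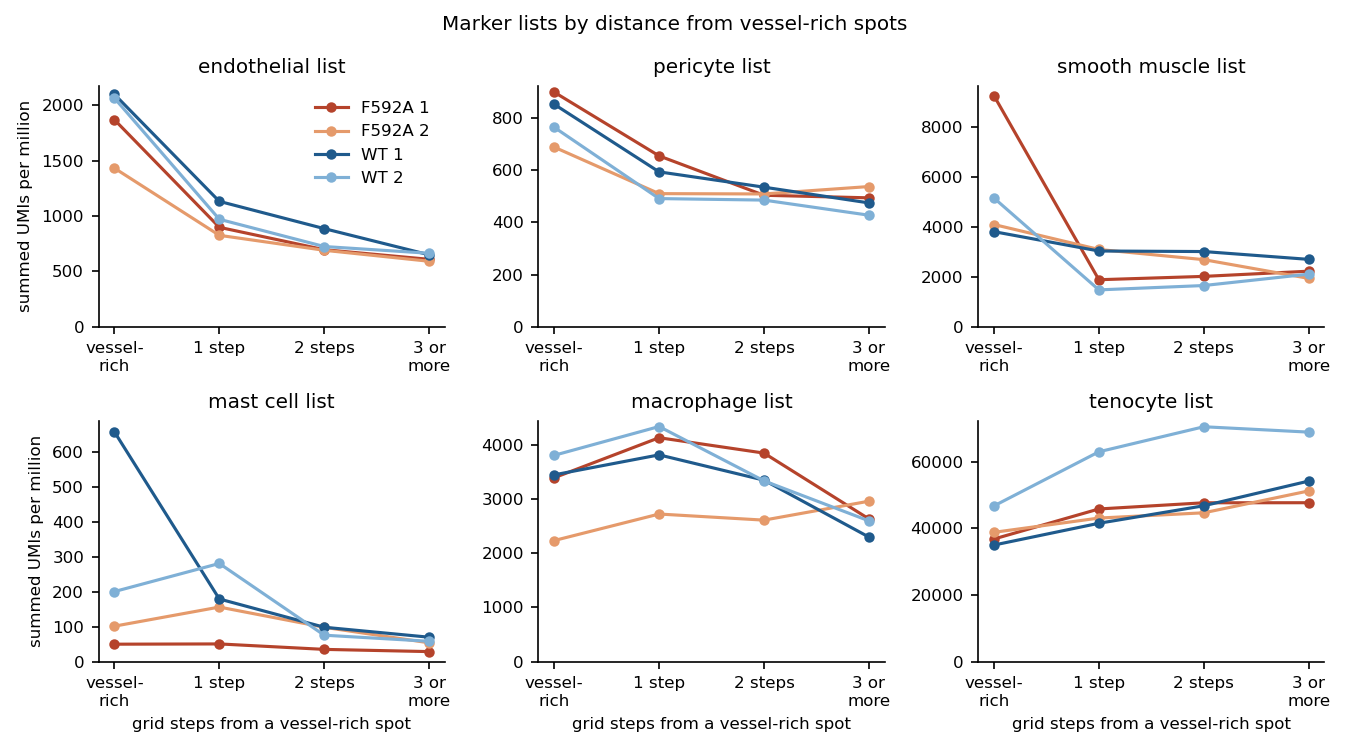
Summed CPM of 6 marker lists, outside the score, in vessel-rich spots and at 1, 2 and 3 or more grid steps from them, by section. The endothelial list fell with distance in all 4 sections, the mast cell list was highest beside vessels in F592A 2 and WT 2, about level in both places in F592A 1 (50.1 CPM within and 50.9 CPM beside) and highest within vessel-rich spots in WT 1 (659 CPM), and the tenocyte list was lowest in the vessel-rich spots.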

How the data were processed

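RNA was measured in 4 mouse sections on Visium arrays. The deposited matrices hold unnormalised UMI counts of genes by spot, written by Space Ranger 1.3.0 per the file headers, and per the submitters' processing notes the build was mm10 and Seurat 3 was used. Array rows and columns, deposited as other values, gave positions, and a grid step is the distance to a touching spot. The image scale factors were not used. The members and gene lists were chosen with earlier results of these data known, and the earlier account used other regions of these sections.

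Counts were summed per section over the vessel-rich spots, other spots, spots beside them (1 step) and far spots (at least 3 steps), and the section was the replicate. The test was edgeR 4.0.16's quasi-likelihood F test on R 4.3.3, with TMM factors, filterByExpr and Benjamini-Hochberg adjustment over all tested genes at 0.05. SEs were taken as |log2 fold change| divided by √F. Single values per section were compared with exact permutation tests, and the 8 scored genes stayed in the fits untested. A patch is a set of vessel-rich spots connected by touching. Python 3.11.15, numpy 2.4.6, pandas 2.3.3, scipy 1.17.1 and matplotlib 3.10.9 were used for sums and figures.

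Named genes were those called with no overlap of groups and mean log2 CPM from 5 upward (at most 12 per direction, by fold change), then the next smallest p-values up to 8 (6 and 3 in the other fits), the 20 leading genes of vessel-rich spots with at least 50 CPM, genes of the lists by smallest p, and a fixed set. Tpsb2 and Selp were named after their values were seen, as were Ntrk3, Ntf3, Cytl1 and Xist. The 42 lists comprise 24 of cell type markers, 16 of pathways and 2 of scored genes. Alternatives included another scaling (RLE), DESeq2 1.42.0, no filter on low counts, other spot numbers, UMI minima and marker sets, each section left out and a replicate block. The fits were tested on simulated data before use. Depth is given with the values, and a count of 0 allows up to 3 counts, which covers counting error only. Some genes are not reported here.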

Additional observations from a re-analysis of the deposited data

Results flagged for a closer look

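Vessel marker RNA was also present in tissue spots that held fewer than 2000 UMIs and so could not be chosen. There the 8 markers made 552.8 CPM in F592A 1 and 338.9 CPM in F592A 2, against 703.7 CPM in WT 1 and 665.7 CPM in WT 2, from 289 and 31 marker UMIs in 340 and 61 spots of F592A sections and 473 and 279 marker UMIs in 461 and 290 spots of WT sections. These were flagged because they stand in spots that no comparison used, well above what a count of 0 allows. In the unchosen spots of at least 2000 UMIs the same genes made 603 and 567 CPM in F592A sections and 717 and 637 CPM in WT sections. Of the shallow spots, 24 and 3 in F592A sections and 18 and 13 in WT sections scored above the lowest vessel-rich spot of their section, at a depth where few marker UMIs set the score.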

How the results depend on the processing

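In vessel-rich spots the 4 calls became 0 with 40 spots per section, 0 with the mural genes alone in the score, 2 with the endothelial genes alone (both among the 4), 9 with DESeq2 and 148 with no filter on low counts (all 4 among them in both), and 0 to 212 when single sections were left out. With 160 spots per section, RLE scaling, 5000 UMIs or without muscle, haemoglobin and mitochondrial genes the count stayed at 3 or 4. Of the 4 calls with 160 spots per section, 3 were among the main 4, and Ccl21a was not called. Of the alternatives chosen after seeing the data, thinning each spot to 2000 UMIs gave 0 and leaving out the largest patches gave 3. A replicate block gave 1 call. Deviations of same-numbered sections correlated at -0.2005, so the numbers were not taken to pair sections; a negative value may come from crossed numbers, and a crossed replicate block, also added later, gave 11. Of 16 settings Nr4a1 passed in 9, Igf2 in 11, Sln in 12 and Ccl21a in 7, each in its direction. The interaction count of 0 became 1 with 160 spots per section, 28 with 40, 13 with 5000 UMIs, 6 with DESeq2, 89 with no filter and 3 to 276 without single sections. Beside vessels the 6 calls became 427 with DESeq2, 311 with no filter and 0 to 178 without single sections. The cause of these shifts was not tested. Differences of F592A minus WT that turned when single sections were left out were pericyte sums (-14.8 CPM, -120.0 to 90.5), smooth muscle sums (2191 CPM, -387.7 to 4770), arterial sums (-366.9 CPM, -1153 to 419.6), capillary sums (-196.3 CPM, -798.7 to 406.1) and the share of vessel-rich spots beside another (-2.5 percentage points, -18.1 to 13.1, and 0.63 with 5000 UMIs). Genes that did not pass and turned were Flt1 (0.24 thinned), Pdgfrb (-0.084 with endothelial genes alone), Acta2 (-0.56 to 1.41 without single sections), Cnn1 (-2.07 to 2.48 without single sections, -0.31 without the patches), Col4a1 (-0.43 thinned, -0.23 with endothelial genes alone, -0.13 to 0.38 without single sections), Vcam1 (-0.053 with 160 spots, -0.20 to 0.28 without single sections) and Hba-a1 (-0.29 with 160 spots, -0.38 thinned, -0.48 to 0.88 without single sections), and in the interaction Igf2 (-0.23 with 160 spots, -0.077 with 5000 UMIs) and Sln (0.14 with 160 spots, -0.68 to 0.40 without single sections). With 2 sections per group and sums led by deep spots, genes of a few CPM could not be measured closely.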
